A study of Homo sapiens with 3 samples.

Results

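The transcripts described here encode the enzymes that add methyl or acetyl groups to histones, and those that take them off, in H9, a human embryonic stem cell line that was kept pluripotent in culture. Members were chosen by gene symbol: the KMT2 and KMT5 families, the SETD, SETDB, NSD, EHMT and SUV39H lysine methyltransferases, DOT1L, the PRMT arginine methyltransferases with CARM1, the KDM demethylases, the KAT acetyltransferases with EP300 and CREBBP, the HDAC deacetylases and the sirtuins. The rule gave 79 of the 18417 genes that have a probe set with a single symbol, and 77 of them passed a filter on low signal that left 12066 genes. KAT14 shares its probe set with PET117 and is not a member. The groups were polysome-bound RNA, polysome-unbound RNA (free of polysomes) and total RNA of H9 cells, with 1 array each. All groups come from the same cell line with no treatment named, and no replicate check exists for any difference, so no p-value is given.

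Histone lysine methylation marks chromatin states: methyl groups on H3K4 and H3K36 accompany active genes, and those on H3K9 accompany silent chromatin. Acetyltransferases open chromatin and deacetylases close it, and pluripotent cells are known for an open, highly acetylated genome that is balanced by repressive marks at lineage genes. An mRNA that carries several ribosomes sediments with polysomes. The polysome-bound and polysome-unbound arrays show how the signal of each mRNA stood in each fraction, relative to other genes. They do not divide these mRNAs into those with and those without ribosomes.

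Each array gives a log2 expression value for every probe set. The bound array was the brightest: over the genes past the filter its median was 7.23, against 5.96 for unbound and 6.20 for total RNA. The study's scaling between arrays is unknown, and whether this offset comes from the cells or from the scaling cannot be told apart. A relative difference is therefore used throughout, which is the log2 difference between arrays minus the difference of those medians (1.26 for bound minus unbound, 1.03 for bound minus total RNA and -0.23 for unbound minus total RNA). A relative difference of 1 (2-fold) counts as apart. Background was set on each array at the 95th percentile of 482 tissue-restricted genes such as olfactory receptors, at 4.39 (bound), 3.55 (unbound) and 3.75 (total RNA). As deposited, the median of these background genes was 0.71 for bound minus unbound, 0.41 for bound minus total RNA and -0.31 for unbound minus total RNA. The first 2 are smaller than the offsets removed, so a typical background gene has a relative difference below 0 there. Of 10 measured pluripotency markers, 10 lay above that line on every array. The 10 germ layer markers had medians of 4.76 in bound, 3.86 in unbound and 3.95 in total RNA, with 7, 8 and 8 above the line and highest values of 8.02, 7.48 and 5.30. The 7 trophoblast and amnion markers had medians of 7.69, 6.17 and 5.20 in the same order of arrays, with 6, 6 and 5 above the line, and the 9 fibroblast markers had medians of 6.95, 4.62 and 5.56, with 9, 9 and 8 above it. The part of other cell types in the values below was not tested, and in a bulk sample fewer cells and less RNA per cell cannot be told apart.

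Nearly all of the enzymes were detected. Above background were 78 of the 79 members in bound RNA (65.0% of all 18417 genes), 76 in unbound RNA (63.4%) and 78 in total RNA (63.9%). The exceptions were PRMT8, a brain-enriched arginine methyltransferase, on the bound and unbound arrays, SIRT4, a mitochondrial sirtuin, on the unbound and total RNA arrays, and HDAC9 on the unbound array. As deposited, bound RNA exceeded the background level of the unbound array by at least 2.16-fold for HDAC9 and at least 2.23-fold for SIRT4. With the offset between arrays removed the lower bounds were -0.15 and -0.10 in log2, so no excess over the median gene was shown for either. With a stricter line at the 99th percentile of the same genes, 68 members lay above it in bound RNA, 72 in unbound RNA and 65 in total RNA. The share of all genes above the stricter line was not computed.

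**Figure D1:**
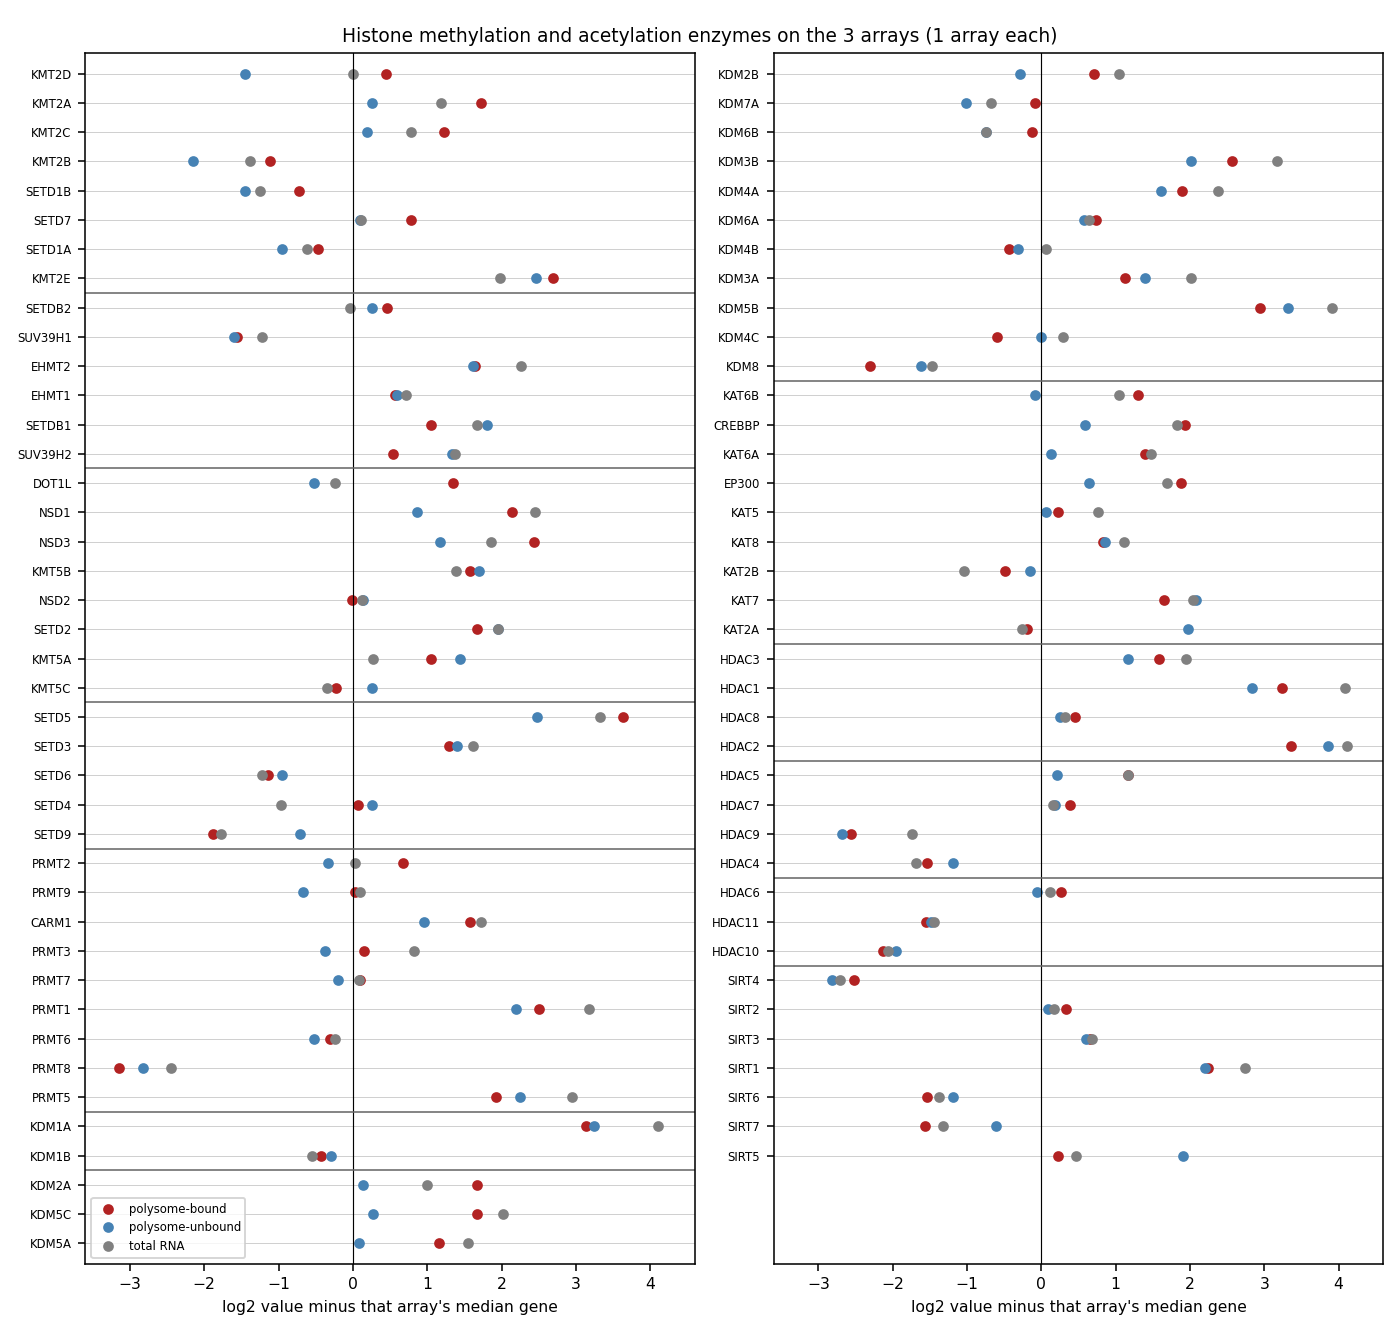
Log2 value of each of the 79 members minus the median gene of the same array (horizontal axis), with 1 point for polysome-bound RNA, 1 for polysome-unbound RNA and 1 for total RNA; lines separate the enzyme classes, which run from the H3K4 methyltransferases at the top left to the sirtuins at the bottom right. KMT2D, DOT1L and KDM2A have their bound point right of both others, and KAT2A and SIRT5 have their unbound point right of both others.

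The stretch around the annotated transcription start is shown for a choice of the members 2-fold apart in bound minus unbound RNA. It is shown because terminal oligopyrimidine mRNAs, whose loading with ribosomes depends on growth signalling, begin with a C followed by pyrimidines. Among those not shown, KDM2A (1.53), KAT6B (1.39), KDM5C (1.39) and NSD1 (1.27) do not begin this way. DOT1L (1.88) has no start listed. In each stretch of 30 bases the first 5 transcribed bases are in capitals.
KMT2A: tgtcgcctctccctctcgctGCTTCacttc
KMT2B: tccccccgcctccccggcccCTCTCacggt
KMT2D: cgagagggcgggatccctccGCCGCtccgc
EP300: ccccgcctccttgtggcgatGAGAAggagg
CREBBP: aaaaactttcttttttttttAATTGaggaa
KAT2A: gcaacgcctgcgcactgagcGCTGGttgcc
SIRT5: ggcggggcgtgggagactgtATTCGggggc
SETD9: ggccggggcgggcccgaggcCTCGAtccgc
The sequences are from RefSeq on GRCh38.p14, and no build is stated for the array. They lie at chr11:118436472-118436501 (KMT2A, plus strand), chr19:35717983-35718012 (KMT2B, plus), chr12:49060785-49060814 (KMT2D, minus), chr22:41092572-41092601 (EP300, plus), chr16:3880704-3880733 (CREBBP, minus), chr17:42121358-42121387 (KAT2A, minus), chr6:13574581-13574610 (SIRT5, plus) and chr5:56909576-56909605 (SETD9, plus). Of the 8, KMT2B begins with a C and 4 pyrimidines. The most unbound members, KAT2A, SIRT5 and SETD9, do not. Among the 70 members past the filter with a start in the table, 4 begin this way (5.71%), against 34 of 52 cytosolic ribosomal protein genes (65.4%) and 519 of 9717 genes past the filter (5.34%). The 4 were KMT2B, HDAC1, HDAC2 and HDAC7, with relative bound minus unbound differences of 1.03, 0.40, -0.50 and 0.21. The search read only the annotated first base on the coding strand, and other starts of these genes were not used here.

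Bound RNA was set against unbound RNA to see how these transcripts stood in the polysome fraction relative to other genes. Of the 77 members past the filter, 17 were 2-fold or more higher in bound RNA, as were 6.33% of all genes past the filter. In the other direction 3 members were at least 2-fold lower, and 9.92% of all genes were. The members' median relative difference was 0.21, beside -0.07 for all genes, and 46 of 77 members lay above 0, as did 46.2% of all genes. As deposited, without removal of the offset, 58 members were 2-fold higher in bound RNA (61.4% of all genes) and 0 lower (1.56%). After quantile normalization 18 members were higher (8.59% of all genes) and 3 lower (8.71%). The 17 are the methyltransferases KMT2A, KMT2B, KMT2C, KMT2D, DOT1L, NSD1, NSD3, SETD5 and PRMT2, the demethylases KDM2A, KDM2B, KDM5A and KDM5C, and the acetyltransferases EP300, CREBBP, KAT6A and KAT6B. The 3 are KAT2A, SIRT5 and SETD9.

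**Figure D2:**
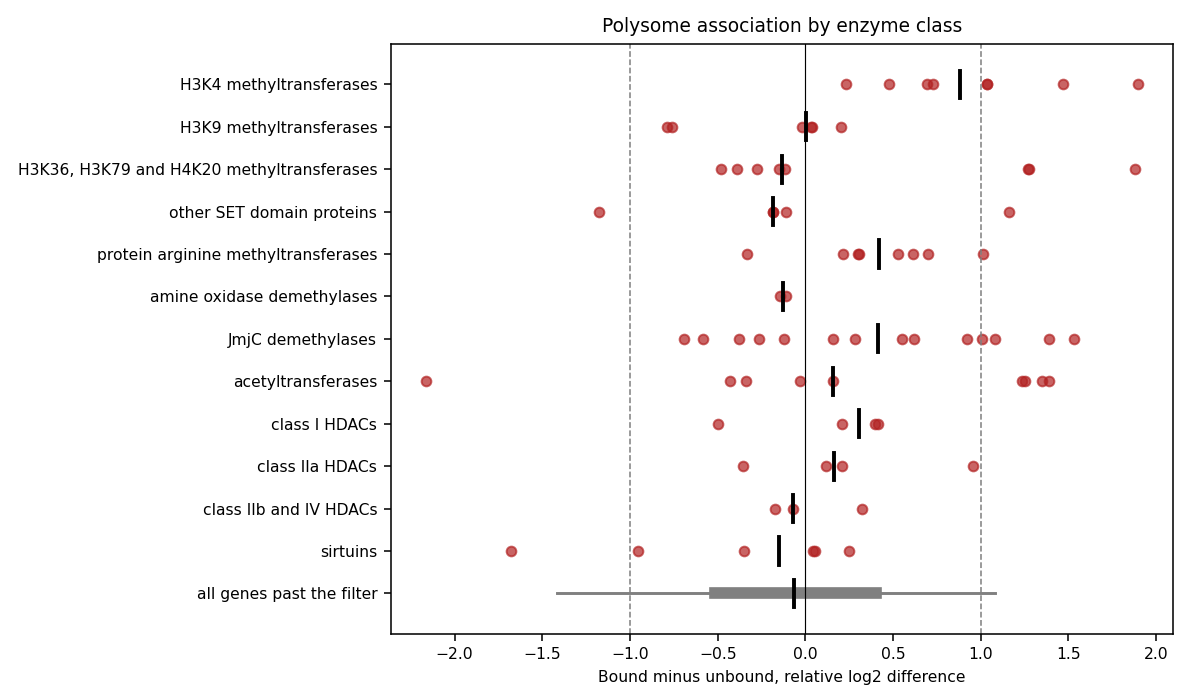
Relative log2 difference of polysome-bound minus polysome-unbound RNA (horizontal axis) for the 77 members past the filter, 1 point per gene, by enzyme class, with black bars at class medians and dashed lines at 2-fold; the bottom row gives the median, the middle 50 percent (thick) and the 5th to 95th percentiles (thin) of all 12066 genes. All 8 H3K4 methyltransferases lie above 0, as do 46.2% of all genes. On the bound side 4 acetyltransferases and no deacetylase lie beyond 2-fold, beside 6.33% of all genes.

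The H3K4 methyltransferases were the class furthest to the bound side by median. The median of the 8 members was 0.88, and it was between 0.81 and 0.95 after quantile normalization or after removal of a trend with signal level or with genomic span. Of the 8, 4 reached 2-fold toward bound RNA (50%, beside 6.33% of all genes). These 4 are the catalytic subunits of the MLL complexes that methylate H3K4 at promoters and enhancers. KMT2D, which acts at enhancers, had log2 values of 7.67 in bound, 4.51 in unbound and 6.20 in total RNA, a relative bound minus unbound difference of 1.89. That placed it at percentile 99.8 of all genes. Its paralog KMT2C had 8.45 in bound, 6.15 in unbound and 6.98 in total RNA (1.04). KMT2C was under 2-fold once the trend with signal level (0.99) or genomic span (0.95) was removed. KMT2A, whose gene is rearranged in leukaemia, had 8.96 in bound, 6.22 in unbound and 7.38 in total RNA (1.47). A second KMT2A probe set lay near background at 4.41, 3.81 and 3.53 on the same arrays and gave -0.66, so the mean of both was 0.41 and that call rests on the brighter one. KMT2B had 6.11 in bound, 3.81 in unbound and 4.81 in total RNA (1.03), with the unbound value under the stricter background line of 4.44. The SET1 enzymes, which place most H3K4 trimethylation, were not 2-fold apart: SETD1B had 0.73 and SETD1A 0.47. SETD7, which adds a single methyl group, had 0.69. KMT2E, a family member without known methyltransferase activity, was lowest of the class with 9.92 in bound, 8.43 in unbound and 8.18 in total RNA (0.23).

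Of the enzymes of H3K9 methylation, a mark of silent chromatin, 2 lay below the median gene in this comparison and 4 near or above it. The median over the 6 members was 0.00 and none was 2-fold apart, beside 6.33% of all genes higher and 9.92% lower. SUV39H2, which trimethylates H3K9 at heterochromatin, had 7.77 in bound, 7.30 in unbound and 7.57 in total RNA, a relative difference of -0.79. SETDB1, which silences retroelements in stem cells, had -0.76. They stood at percentiles 14.6 (SUV39H2) and 15.5 (SETDB1) of all genes. EHMT1 (-0.02) and EHMT2 (0.03), which work as a heterodimer on H3K9 dimethylation, were 0.05 apart. SUV39H1 had 0.04, and SETDB2, at the top of the class, had 7.69 in bound, 6.22 in unbound and 6.17 in total RNA (0.21).

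Among the 8 enzymes of H3K36, H3K79 and H4K20, 3 reached 2-fold toward bound RNA (37.5%, beside 6.33% of all genes). DOT1L, which methylates H3K79 in transcribed genes, had 8.58 in bound, 5.44 in unbound and 5.95 in total RNA, with a relative difference of 1.88 (percentile 99.8 of all genes). NSD1 and NSD3, which dimethylate H3K36, both had 1.27: NSD1 had 9.37 in bound, 6.83 in unbound and 8.65 in total RNA, and NSD3 had 9.66 in bound, 7.13 in unbound and 8.05 in total RNA. The other 5 lay between -0.48 and -0.12. Among them SETD2, the enzyme of H3K36 trimethylation, had -0.28, and NSD2, the third H3K36 dimethyltransferase, had -0.15. The H4K20 enzymes KMT5A, KMT5B and KMT5C had -0.39, -0.12 and -0.48. KMT5C, the lowest, had 7.00 in bound, 6.22 in unbound and 5.85 in total RNA.

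Among the other SET domain proteins SETD5, a chromatin regulator mutated in intellectual disability, had 10.86 in bound, 8.44 in unbound and 9.52 in total RNA, a relative difference of 1.16. SETD9 was on the opposite side with 5.34 in bound, 5.25 in unbound and 4.43 in total RNA, a relative difference of -1.17 that was 0.09 as deposited. SETD3, which methylates a histidine of actin, had -0.11. SETD6, which methylates a subunit of NF-kappaB, had -0.18, and SETD4 had -0.19.

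Of the 8 arginine methyltransferases past the filter, 7 lay above 0, beside 46.2% of all genes, with a class median of 0.42. PRMT2 was highest with 7.90 in bound, 5.63 in unbound and 6.23 in total RNA (1.01). It was under 2-fold once the trend with signal level (0.96) or genomic span (0.99) was removed. PRMT9 had 0.70, CARM1, a coactivator of nuclear receptors, 0.61, PRMT3, which methylates a ribosomal protein, 0.53, PRMT7 0.31, PRMT1, the main enzyme of asymmetric dimethylation, 0.30, and PRMT6 0.21. PRMT5, which makes symmetric dimethylarginine and is needed for pluripotency in mouse, was the exception with 9.15 in bound, 8.22 in unbound and 9.14 in total RNA (-0.33). PRMT8 did not pass the filter.

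The JmjC demethylases, which remove methyl groups with iron and 2-oxoglutarate, had a median of 0.42 and spanned -0.69 to 1.53. Both H3K36 demethylases of the KDM2 family were on the bound side. KDM2A had 8.89 in bound, 6.10 in unbound and 7.20 in total RNA (1.53). KDM2B, which also recruits a Polycomb complex to CpG islands, had 7.94 in bound, 5.67 in unbound and 7.25 in total RNA (1.01), and was under 2-fold once a trend with signal level (0.95) or span (0.87) was removed. Of the H3K4 demethylases, KDM5C had 8.89 in bound, 6.24 in unbound and 8.22 in total RNA (1.39), and KDM5A had 8.39 in bound, 6.05 in unbound and 7.74 in total RNA (1.08). KDM5B, the third KDM5 enzyme measured, had 10.16 in bound, 9.28 in unbound and 10.10 in total RNA (-0.38). That value depended on the scaling: it was 0.04 after quantile normalization and -0.11 after removal of the trend with signal level.

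The other JmjC members were within 2-fold in bound minus unbound RNA. KDM7A had 0.92, the H3K27 demethylases KDM6B and KDM6A had 0.62 and 0.16, and the H3K9 demethylases KDM3B and KDM3A had 0.55 and -0.27. The KDM4 enzymes, which act on H3K9 and H3K36, had 0.28 (KDM4A), -0.12 (KDM4B) and -0.59 (KDM4C). KDM8 was lowest with 4.92 in bound, 4.35 in unbound and 4.72 in total RNA (-0.69). The amine oxidase KDM1A, the H3K4 demethylase of the CoREST complex, had 10.36 in bound, 9.21 in unbound and 10.30 in total RNA (-0.11), a value that was 0.35 after quantile normalization and 0.18 after removal of the trend with signal level. Its relative KDM1B had 6.79 in bound, 5.67 in unbound and 5.65 in total RNA (-0.15).

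The 9 acetyltransferases ran from -2.16 to 1.39 in bound minus unbound RNA. The coactivators EP300 and CREBBP, which acetylate H3K27 at enhancers, and the MYST enzymes KAT6A and KAT6B all reached 2-fold toward bound RNA. They make up 44.4% of the class, beside 6.33% of all genes. CREBBP had 9.16 in bound, 6.55 in unbound and 8.02 in total RNA (1.35), and EP300 had 9.10 in bound, 6.60 in unbound and 7.89 in total RNA (1.23). KAT6B had 8.53 in bound, 5.87 in unbound and 7.25 in total RNA (1.39), and KAT6A had 8.62 in bound, 6.10 in unbound and 7.68 in total RNA (1.25). KAT2A, the acetyltransferase of the SAGA complex also known as GCN5, was the lowest of all members. It had 7.03 in bound, 7.93 in unbound and 5.93 in total RNA, a relative difference of -2.16 (4.47-fold lower, percentile 1.73 of all genes). As deposited it was also lower in bound RNA (-0.90). Between these lay KAT5 (0.16), the catalytic subunit of NuA4, KAT8 (-0.03), which acetylates H4K16, KAT2B (-0.34), the paralog of KAT2A, and KAT7 (-0.43), the HBO1 enzyme of replication origins.

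None of the 10 classical deacetylases above background on every array was 2-fold apart in bound minus unbound RNA. Of all genes past the filter, 6.33% were higher and 9.92% lower. With so few deacetylases, none apart is near that share and is not read as a trait of the class. HDAC5 reached 1.001 after quantile normalization. Of class I, HDAC3, the enzyme of NCOR complexes, had 8.82 in bound, 7.14 in unbound and 8.15 in total RNA (0.42), HDAC1 had 10.46 in bound, 8.80 in unbound and 10.28 in total RNA (0.40), HDAC8 had 0.21, and HDAC2 had 10.58 in bound, 9.82 in unbound and 10.31 in total RNA (-0.50). HDAC1 and HDAC2 serve in the same NuRD and SIN3 complexes. Both values moved with the scaling: HDAC2 had 0.13 after quantile normalization and -0.02 after removal of the trend with signal level, and HDAC1 had 0.81 and 0.63. Of class IIa, whose members shuttle between nucleus and cytoplasm, HDAC5 had 8.40 in bound, 6.18 in unbound and 7.36 in total RNA (0.96), HDAC7 had 0.21 and HDAC4 had 5.69 in bound, 4.78 in unbound and 4.52 in total RNA (-0.35). HDAC9 had 4.67 in bound, 3.28 in unbound and 4.46 in total RNA, and since its unbound value was under background, its relative difference has only the lower bound given above. HDAC6, the tubulin deacetylase, had 7.50 in bound, 5.91 in unbound and 6.31 in total RNA (0.32), HDAC11 had -0.07, and HDAC10, a polyamine deacetylase, had 5.10 in bound, 4.01 in unbound and 4.14 in total RNA (-0.17).

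Sirtuins, the NAD-dependent deacylases, had a median of -0.15 over 6 members, and 1 was 2-fold lower in bound RNA (16.7%, beside 9.92% of all genes). SIRT5, the mitochondrial desuccinylase, had 7.45 in bound, 7.87 in unbound and 6.66 in total RNA, a relative difference of -1.68 (3.21-fold lower, percentile 3.31 of all genes). It was the only member besides KAT2A that was lower in bound RNA as deposited (-0.42). SIRT7, a nucleolar enzyme, had -0.96 and the chromatin enzyme SIRT6 -0.35. SIRT1, the nuclear deacetylase of p53, had 0.04, the mitochondrial SIRT3 0.06, and SIRT2, at the top, had 7.56 in bound, 6.05 in unbound and 6.37 in total RNA (0.25).

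Paralogs with related functions were set against each other in 19 pairs. In 4 pairs the relative bound minus unbound differences were at least 1 apart, and after quantile normalization in 7. The standard deviation of this difference over genes was 0.80. The share of unrelated gene pairs as far apart was not computed, so these counts are not read as a trait of paralogs. The widest gap, 1.82, was between KAT2B, with 6.74 in bound, 5.82 in unbound and 5.16 in total RNA, and KAT2A. KDM5A and KDM5B were 1.46 apart, and NSD1 and NSD2 1.42 apart, where NSD2 had 7.21 in bound, 6.10 in unbound and 6.32 in total RNA. HDAC5 and HDAC4 were 1.31 apart, with HDAC4 under the stricter background line in bound and total RNA. Near-equal pairs were KAT6B and KAT6A (gap 0.14), CREBBP and EP300 (0.11), EHMT2 and EHMT1 (0.05) and KDM1A and KDM1B (0.04). The last did not stay near-equal after quantile normalization, with 0.35 for KDM1A and -0.14 for KDM1B. HDAC1 and HDAC2 were 0.89 apart. Probes of close paralogs could share signal, and how far they do was not tested.

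**Figure D3:**
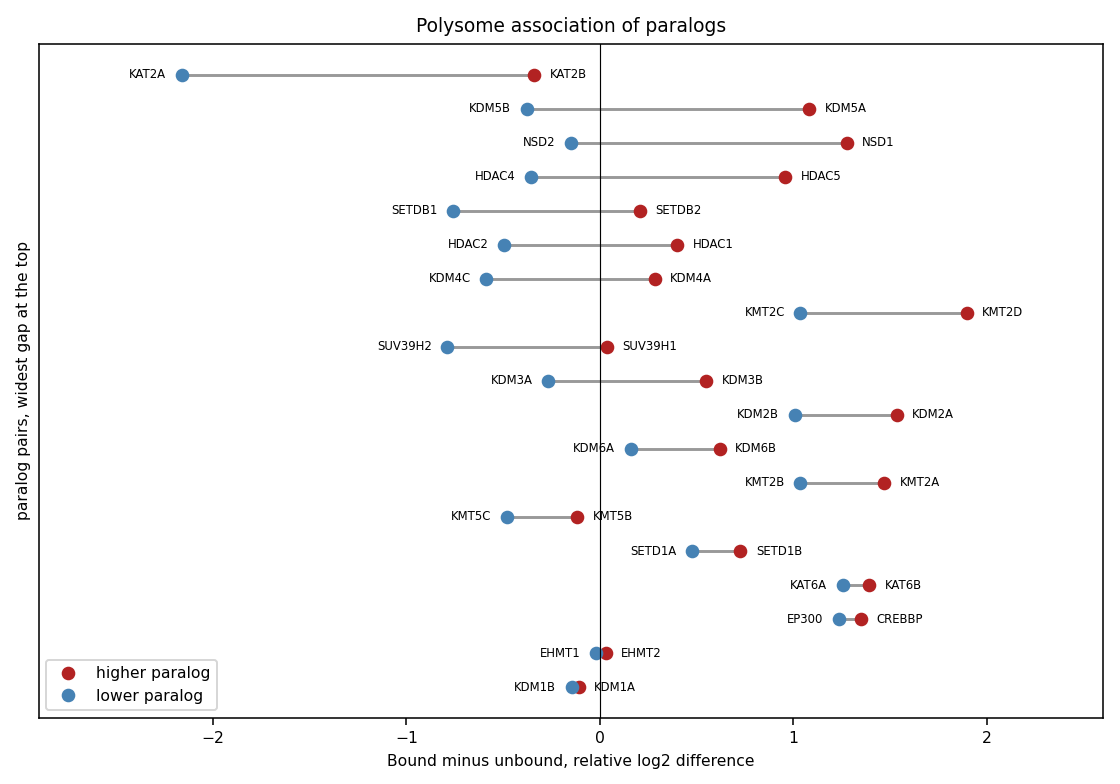
Relative log2 difference of polysome-bound minus polysome-unbound RNA (horizontal axis) for 19 pairs of paralogs, 1 row per pair, joined by a line and sorted by gap. The gap is 1.82 for KAT2B and KAT2A at the top and 0.04 for KDM1A and KDM1B at the bottom.

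The members were also set out by genomic span. This measure, the distance from a gene's start to its end in RefSeq, was not used to choose the members and holds introns, so it is not the length of the mRNA. Of 21 members over 100 kb, 9 reached 2-fold toward bound RNA (42.9%), beside 11.1% of the 2304 protein-coding genes of that span. Of the 16 members under 20 kb, 0 were higher and 2 lower, beside 3.10% higher and 12.8% lower of 4156 coding genes. The members' median difference did not rise steadily with span. It was -0.18 under 20 kb, 0.28 at 20 to 50 kb, 0.42 at 50 to 100 kb and 0.23 over 100 kb. The medians of coding genes in the same order were -0.21, 0.01, 0.06 and 0.10. Across the 77 members the Pearson correlation of the difference with log2 span was 0.34 (Spearman 0.34), and across 11499 coding genes it was 0.21 (Spearman 0.21). Genes are not independent replicates, and all points share the same arrays. With the trend of all coding genes removed, 13 members were still 2-fold higher (6.32% of coding genes) and 3 lower (7.95%). Those that went under 2-fold were KMT2C (0.95), KDM5A (0.96), KDM2B (0.87) and PRMT2 (0.99). The part that mRNA length plays was not tested.

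**Figure D4:**
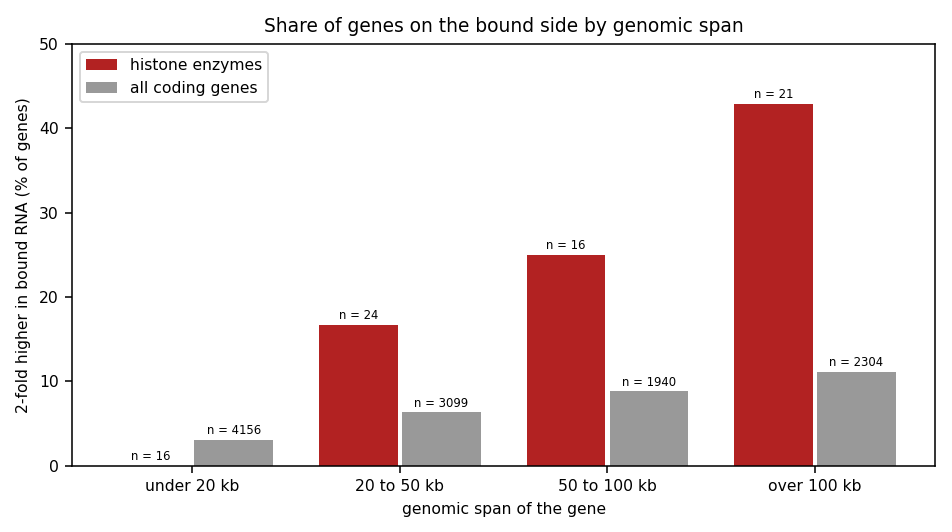
Share of genes at least 2-fold higher in polysome-bound than in polysome-unbound RNA (vertical axis, percent) in 4 classes of genomic span, for the histone enzymes past the filter (red) and all protein-coding genes past the filter (grey), with the number of genes above each bar. The share is 42.9% of the enzymes over 100 kb, against 11.1% of coding genes of that span.

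The comparison of bound with total RNA sets the polysome array against the whole transcript pool. Total RNA was extracted with another kit than the polysome pools, and the effect of the kit cannot be told apart from that of the RNA source. Here 2 of 77 members were 2-fold or more higher in bound RNA (2.67% of all genes) and 1 was lower (6.39%), with a median of -0.08 beside -0.14 for all genes. DOT1L had a relative difference of 1.60, 3.03-fold higher, and SETD4, with 7.29 in bound, 6.22 in unbound and 5.23 in total RNA, had 1.04. PRMT5 had -1.02, which was 0.01 as deposited. KDM1A (-0.97), KDM5B (-0.97), HDAC1 (-0.85) and HDAC2 (-0.76) lay below the median gene without reaching 2-fold. These bright genes depended on the scaling: after quantile normalization they had -0.29 (KDM1A), -0.31 (KDM5B), -0.13 (HDAC1) and 0.01 (HDAC2). As deposited, 35 members were higher (40.1% of all genes) and 0 lower (0.572%), and after quantile normalization 4 were higher (3.31%) and 0 lower (3.39%). Of the 3 calls only that of DOT1L (1.66) remained under quantile normalization, where SETD4 had 0.9961 and PRMT5 -0.63, and KMT2E (1.203), SETD5 (1.16) and NSD3 (1.01) passed 2-fold.

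Unbound RNA was set against total RNA with the same total RNA array. In this comparison 5 members were at least 2-fold higher in unbound RNA (8.1% of all genes) and 12 lower (9.94%), and the median was -0.29 beside -0.07 for all genes. The 5 were KAT2A (2.23, 4.69-fold higher), SIRT5 (1.45), SETD4 (1.22), KMT5A (1.16) and SETD9 (1.06). KMT5A, the H4K20 monomethyltransferase, had 8.27 in bound, 7.40 in unbound and 6.47 in total RNA. Its 2 brighter probe sets gave 1.16 and 1.13, and the third, at 3.56 on the unbound array, -0.32. Of the 12 lower members, KDM5C (-1.74), NSD1 (-1.58), KDM5A (-1.46), KMT2D (-1.45), KDM2B (-1.34), KAT6A (-1.34), CREBBP (-1.23), KAT6B (-1.14) and EP300 (-1.05) are among the 17 that were higher in bound than in unbound RNA, a comparison that shares the unbound array. The other 3 were HDAC1 (-1.25), PRMT3, with 7.38 in bound, 5.59 in unbound and 7.03 in total RNA (-1.20), and KDM3B, with 9.79 in bound, 7.97 in unbound and 9.37 in total RNA (-1.17). As deposited, 2 members were higher (5.42% of all genes) and 22 lower (16%), and the 2 were KAT2A and SIRT5. After quantile normalization 4 were higher (8.74% of all genes) and 10 lower (8.08%), with SETD9 (0.99), HDAC1 (-0.94), EP300 (-0.84) and KDM3B (-0.81) under 2-fold, and HDAC9 (-1.07), under background in unbound RNA, past it.

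**Figure D5:**
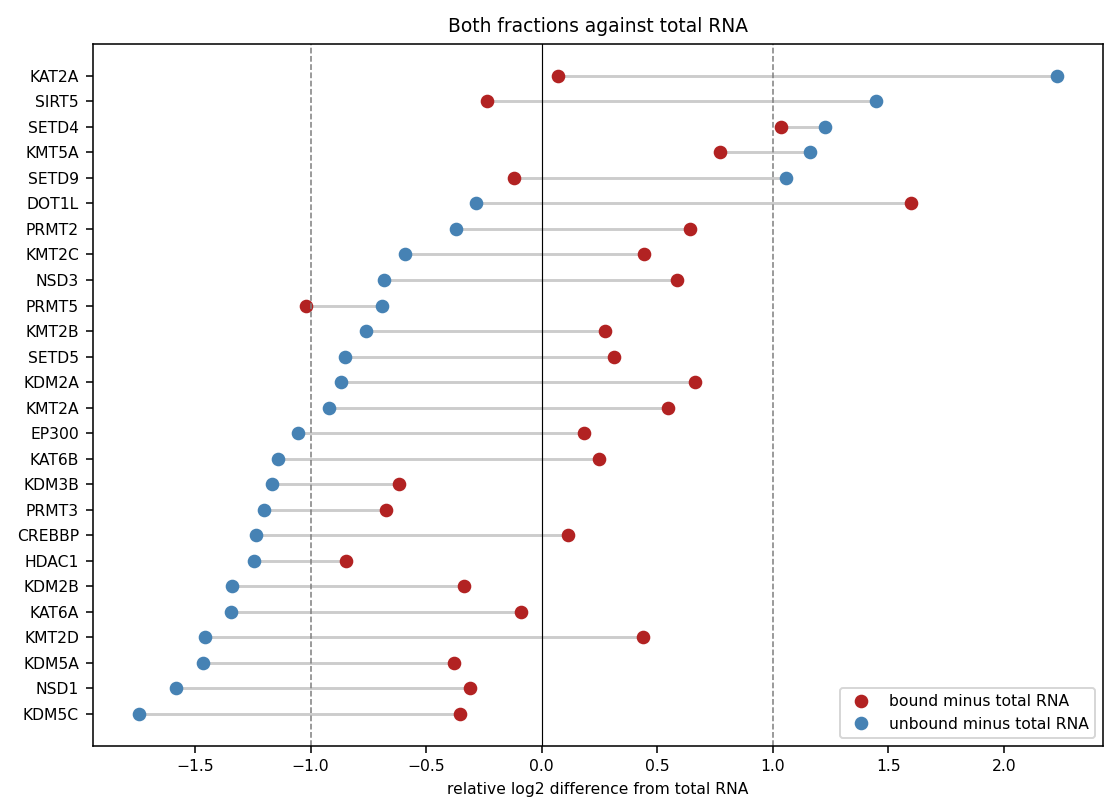
Relative log2 difference from total RNA (horizontal axis) of polysome-bound RNA (red) and polysome-unbound RNA (blue) for the 26 members at least 2-fold apart in any of the 3 comparisons; dashed lines mark 2-fold. Unbound values run from 2.23 for KAT2A to -1.74 for KDM5C, while bound values lie within 2-fold of total RNA except for DOT1L, SETD4 and PRMT5.

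For the 17 members of the bound side, the 2 comparisons with total RNA can be read side by side, with the total RNA array shared between them. Because the 17 were picked for high bound over unbound values, low unbound and high bound values against total RNA are partly set by that choice. Their unbound minus total differences ran from -1.74 to -0.28, and their bound minus total differences from -0.38 to 1.60. DOT1L was 2-fold above total RNA on the bound array, and 9 of the 17 were 2-fold below total RNA on the unbound array. In all, 51 of the 77 members, HDAC9 by its measured values among them, were within 2-fold in all 3 comparisons. The same share over all genes was not computed, so this count is not read as a trait of the members.

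Partners and readers of these enzymes were described from lists of other genes, whose counts stand beside 6.33% of all genes higher, 9.92% lower and a median of -0.07. Of 12 subunits of COMPASS and MLL complexes, 2 reached 2-fold toward bound over unbound RNA (16.7%) and 0 were lower, with a median of 0.35. They were HCFC1, a host cell factor that bridges SET1 and SIN3 complexes, with 8.16 in bound, 5.07 in unbound and 7.67 in total RNA (1.83), and WDR82, a SET1 subunit (1.07). PAGR1 (-0.26) and ASH2L (-0.15), a core subunit, were lowest. Of 16 CoREST, SIN3 and NCOR corepressors, 2 were higher (12.5%), SIN3B (1.09) and ARID4B (1.08), and 0 lower, with a median of 0.14. PHF21A (-0.96) and RCOR3 (-0.76), both of CoREST complexes, were lowest.

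Subunits of acetyltransferase complexes had 1 of 39 genes at least 2-fold higher (2.56%, beside 6.33% of all genes) and 6 lower (15.4%, beside 9.92%), with a median of -0.11. The higher one was TRRAP, the scaffold of SAGA and NuA4 (1.03), with DR1 next (0.77). Lowest were SUPT3H, a SAGA subunit like KAT2A, with 7.12 in bound, 8.40 in unbound and 6.60 in total RNA (-2.55), and ING4, of the HBO1 complex, with 8.75 in bound, 9.68 in unbound and 7.73 in total RNA (-2.20). Of 24 bromodomain and chromodomain readers, 5 were higher (20.8%) and 0 lower, with a median of 0.63, from TRIM24 (-0.75) and TRIM28 (-0.53) to BAZ2B (1.45) and BAZ2A (1.66). Of 22 further histone methylation and acetylation enzymes, 2 were higher (9.09%), PHF8, a histone demethylase (1.42), and NCOA1, a nuclear receptor coactivator (1.12), and 1 lower (4.55%), SMYD2, a lysine methyltransferase (-1.53). Their median was -0.05, and PRDM2 had -0.78. As deposited, every list of members or partners had a median above 0 in bound minus unbound RNA.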

How the data were processed

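RNA of H9 cells was hybridised to 3 arrays, 1 each of polysome-bound, polysome-unbound and total RNA, grouped by the sample type in the labels. Per the labels' protocols, a PureLink kit was used for RNA of the polysome pools and an RNeasy Plus kit for total RNA. The method of polysome separation is not stated there. The authors deposited log2 values, 1 for each of 33297 probe sets. They were made with Partek 6.5 and RMA per the submitters' processing notes. The 3 columns do not share a distribution, and a constant added to a column cancels in relative differences. Arrays have no read depth, and the single array per group limits the precision.

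Symbols came from GEO's platform annotation: 19460 probe sets have 1 symbol, 1754 several and 12083 none listed here. Only the first kind was named, and all 79 member symbols matched RefSeq (GRCh38.p14). The brightest probe set stood for a gene. Genes passed the filter with a mean over the arrays above 3.84, the 95th percentile of the background genes. No test was possible with 1 array per group.

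The members and lists were chosen with earlier results of these data known. All members are named. By the naming rule, those 2-fold apart, at the ends of a class or in a wide paralog gap have all 3 values, and partner lists have the 2 highest and 2 lowest genes named. Values in total RNA were not ranked between genes, because probes differ. The alternatives were no centring, quantile normalization, lowess on signal level (span 0.3), other filters, the mean of probe sets and other thresholds. Lowess on genomic span was added after the data were seen, in place of a trend with protein length, which was not run. The scripts were tested on simulated data. Software was matplotlib 3.10.9, statsmodels 0.14.6, scipy 1.17.1, pandas 2.3.3 and numpy 2.4.6 under Python 3.11.15.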

Additional observations from a re-analysis of the deposited data

How the results depend on the processing

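For bound minus unbound RNA, the members 2-fold higher numbered between 13 and 19 under quantile normalization, both lowess corrections, other filters and the mean of probe sets, against 17 as reported, and the members lower numbered 3 under each of these. Without centring the counts were 58 higher and 0 lower with a median of 1.47 in bound minus unbound RNA, 35 and 0 with a median of 0.95 in bound minus total RNA, and 2 and 22 with a median of -0.53 in unbound minus total RNA. SETD9 (0.088 for bound minus unbound) and PRMT5 (0.0083 for bound minus total RNA) had the opposite sign without centring and are the members 2-fold apart that turned. Over all 77 members, 29 of the 31 below 0 in bound minus unbound RNA and 42 of the 42 below 0 in bound minus total RNA were above 0 without centring, and after quantile normalization 5 and 7 of them were. Of the 20 members 2-fold apart in bound minus unbound RNA, 20 kept the call after quantile normalization, 17 after lowess on signal level (KMT2C, KDM2B and PRMT2 went under 2-fold), 16 after lowess on genomic span, 19 with the mean of probe sets and 17 without centring. At 1.5-fold, 24 members were higher (17.6% of all genes) and 8 lower (22.1%) in bound than in unbound RNA, 10 (8.22%) and 15 (18.5%) in bound than in total RNA, and 8 (17.5%) and 31 (22.3%) in unbound than in total RNA. At 3-fold, the counts were 2 (0.845%) and 2 (3.88%), 1 (0.572%) and 0 (1.52%), and 1 (2.56%) and 1 (2.6%). In bound minus total RNA, quantile normalization gave 4 higher and 0 lower with a median of 0.046. There, lowess on signal level gave 0 lower and a median of 0.033, lowess on genomic span 0 lower and a median of 0.059, and the filter at the 99th percentile of background 0 lower. With lowess on genomic span the median for unbound minus total RNA was -0.18. The number of paralog pairs at least 1 apart was 7 after quantile normalization. The cause of these shifts was not tested, except where the threshold, the filter or the offset itself sets them. A median counted as moved at a shift of 0.1 or more. No paired analysis was possible because each group has 1 array. Signal near background limits KMT2B, SETD9, KDM8, HDAC9, HDAC10, PRMT8 and SIRT4. SUV39H1 was under the stricter background line on every array. HDAC4, HDAC11, SIRT6 and SIRT7 were under it in bound and total RNA, and SETD1B and SETD6 in total RNA.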

Other observations

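Both EHMT2 probe sets held identical values on all 3 arrays. The KDM8 probe sets gave relative bound minus unbound differences of -0.69 (the one used) and -0.55. The other one read 3.43 in bound, 2.72 in unbound and 3.11 in total RNA, under background on every array. Its difference therefore says nothing about the first. The probe set shared by KAT14 and PET117, which the naming rule leaves out, had log2 values of 8.18 in bound, 6.27 in unbound and 6.92 in total RNA, a relative difference of 0.65.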
